A study of Pogonatum aloides with 7 samples.

Results

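The 300 transcripts described here reached their highest level in the big capsules of the moss Pogonatum aloides while also being listed in every other library of the study. They are unigenes, that is, RNA sequences pieced together from the reads with no genome as guide. They were chosen by their measured RPKM, a read count scaled to unigene length and library total. Of 74566 unigenes, 18218 had a value in all 6 libraries and 9601 of these averaged at least 5 RPKM. In 419 of the 9601 the stage 5 value was at least 2 times each of the other 5 values. The 9 whose values increased at every capsule stage were left out, and of the remaining 410 the 300 with the highest stage 5 RPKM were taken. The height of stage 5 is therefore how the set was made and is given below as a description, without a test.

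The libraries came from capsules of stages 1, 2 and 3, labelled small, of stage 4, labelled middle, and of stage 5, labelled big, and from the young gametophyte, labelled as seedlings, which the series names as control. All samples were labelled wild type, with 1 library per stage and 1 for the gametophyte. No label says how many plants or capsules went into a library. A pool of both tissues was not analysed here. The steps between RPKM values corresponded to library totals of 5458335 to 5752394 reads for the capsules and 3821669 reads for the gametophyte, so the gametophyte library was the shallowest. These are the smallest totals that give whole reads. Multiples of them would do so too, and separate counting of paired mates was not tested for, so all read numbers and counting intervals below rest on this choice. Among the capsules the libraries were not alike in stage order. Values at least 2-fold apart made up 20.4% of the 9601 unigenes between stages 3 and 1 and 20.4% between stages 4 and 2, but 31.8% to 43.9% between the other capsule pairs. The part of this likeness in the profiles below was not tested.

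In mosses the leafy green plant is the haploid gametophyte, and the diploid sporophyte that grows on it ends in a capsule. Inside the capsule, spore mother cells pass through meiosis, spores form their walls and take up reserves, and the capsule wall and the tissues around its mouth mature until the spores are shed. In hair-cap mosses and their relatives, to which Pogonatum belongs, the capsule also photosynthesises for part of its growth. The identifiers in the files carry no gene names, and 0 of the 300 unigenes could be tied to a gene or a function here. They are therefore described by identifier, length and profile.

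Levels were spread widely within the set. The stage 5 RPKM ran from 31.5 to 1778 with a median of 93.6, and 141 of the 300 reached 100 RPKM, 8 reached 500 and 3 reached 1000. The median levels of the 300 were 26.8, 21.8, 20.8, 22.4 and 93.6 RPKM across stages 1 to 5, with 12.2 RPKM in the gametophyte. For all 9601 unigenes the medians were 22.1, 21.8, 22.8, 19.8 and 22.7 RPKM across stages 1 to 5, with 15.5 RPKM in the gametophyte. Together the 300 held 2.09%, 1.56%, 1.44%, 1.57% and 7.17% of the summed RPKM of stages 1 to 5 and 0.682% of that of the gametophyte. The 10 highest alone made up 1.42% of the stage 5 sum. In bulk tissue, more cells of one type and more RNA per cell cannot be told apart.

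**Figure D1:**
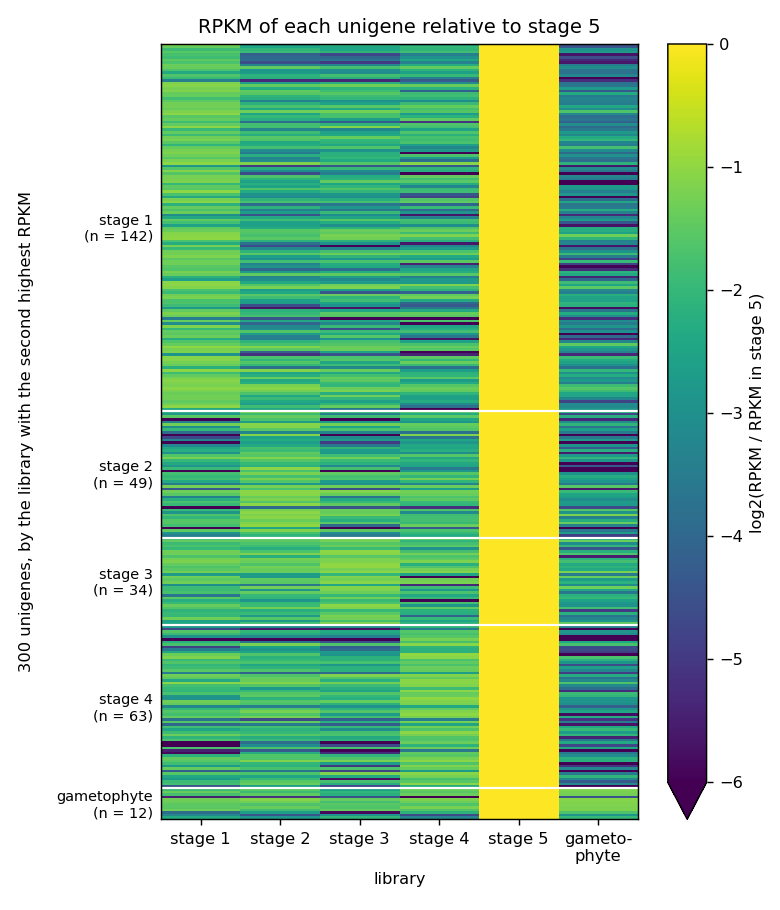
RPKM in each library relative to stage 5 (log2, colour) for the 300 unigenes, 1 per line, with stage 1 to 5 and the gametophyte as columns. White lines separate the unigenes by the library with the second highest value, which was stage 1 for 142, stage 2 for 49, stage 3 for 34, stage 4 for 63 and the gametophyte for 12, and within each block they run by falling stage 5 RPKM. The gametophyte column is the darkest, being the lowest library for 204 of the 300.

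The most abundant of the set were Unigene22379 and Unigene22378. Unigene22379, of 502 bases, measured 780, 278, 416, 340.5 and 1778 RPKM across stages 1 to 5, with 89.7 RPKM in the gametophyte. Unigene22378, of 1425 bases, measured 495, 239, 240, 327 and 1320 RPKM across stages 1 to 5, with 62.2 RPKM in the gametophyte. Both had stage 1 as the next highest library and the gametophyte as the lowest. Stage 5 was 2.28-fold above stage 1 for Unigene22379 (95% exact counting interval 2.17 to 2.40) and 2.67-fold for Unigene22378 (2.57 to 2.76). These intervals come from reads worked back from the RPKM steps and cover counting error only, since no stage had a second library.

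CL5535.Contig3 came next, a contig of 3665 bases that carried the most reads of the set in stage 5, 27392. It measured 263, 526, 338, 413 and 1305 RPKM across stages 1 to 5, with 281 RPKM in the gametophyte. Its second highest value lay in stage 2, and its gametophyte level was the highest of the 300. It was followed by Unigene20786, of 386 bases, at 249, 222, 170, 219 and 922 RPKM across stages 1 to 5, with 119 RPKM in the gametophyte, and by Unigene20785, of 600 bases, at 308, 240, 211, 254 and 901 RPKM across stages 1 to 5, with 139 RPKM in the gametophyte. In these last 2 the 4 earlier stages lay close together, and stage 5 stood 3.70-fold (3.37 to 4.07) and 2.93-fold (2.73 to 3.14) above stage 1.

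Another kind of profile appeared in 4 of the 10 most abundant unigenes, with stage 1 at least 4 times stages 2 and 3, stage 4 between them and the maximum in stage 5. Unigene24251 measured 199, 37.8, 25.3, 61.1 and 663 RPKM across stages 1 to 5, with 13.1 RPKM in the gametophyte. Unigene3519 measured 168, 39.7, 38.1, 81.0 and 614 RPKM across stages 1 to 5, with 25.5 RPKM in the gametophyte. Stages 2 and 3 thus lay nearer to the gametophyte than to stage 1 in both. CL6229.Contig1 measured 191, 36.5, 43.4, 97.2 and 545 RPKM across stages 1 to 5, with 13.5 RPKM in the gametophyte, and it was the only contig of its cluster in the files. Unigene1787 measured 148, 20.5, 15.3, 47.8 and 483 RPKM across stages 1 to 5, with 9.81 RPKM in the gametophyte. In all 4 the gametophyte lay below every capsule stage. CL744.Contig1, the ninth of the set, differed from them in stage 2, with 75.4, 136, 47.6, 101 and 498 RPKM across stages 1 to 5 but 19.0 RPKM in the gametophyte.

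**Figure D2:**
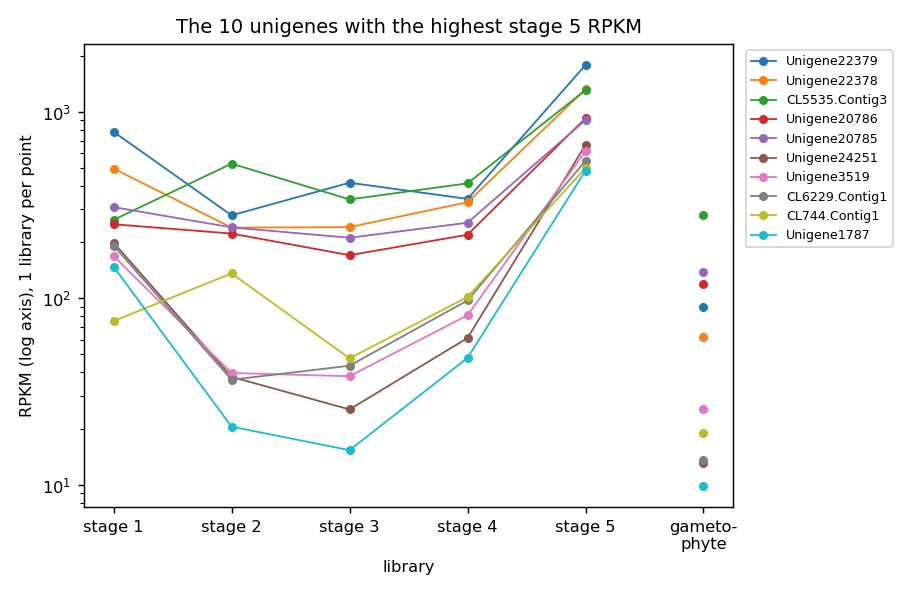
RPKM (log axis) of the 10 unigenes with the highest stage 5 value, 1 point per library, with lines joining the capsule stages and the gametophyte as a separate point. All 10 lie highest in stage 5, between 483 and 1778 RPKM, and 4 of them dip to between 15.3 and 43.4 RPKM in stages 2 and 3.

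This dip, noticed in the most abundant unigenes, was then counted in the whole set in a milder form, so the count describes the set and is no test of it. Without any margin, Unigene22378 and Unigene20785 have it too. Stages 1 and 4 both lay above stages 2 and 3 in 83 of the 300 (27.7%), against 14.4% of the 3919 unigenes whose stage 5 RPKM was at least that of the 300th and 9.6% of all 9601. By a margin of 1.5 times it was found in 19 of the 300 (6.33%), against 1.58% of the 3919 and 1.43% of the 9601. After scaling the libraries by trimmed means of M values (TMM) the shares without a margin were 29.3% of the 300 and 14.8% of the 3919.

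The margin of stage 5 over the next highest library had a median of 2.65, with quartiles of 2.26 and 3.34. It reached 3 in 107 unigenes, 4 in 48, 5 in 31 and 10 in 7. Unigene1875, of 3413 bases, had the widest, 22.2-fold (17.4 to 28.7), with 2.60, 3.36, 5.10, 0.483 and 114 RPKM across stages 1 to 5 but 5.14 RPKM in the gametophyte. CL4792.Contig2 followed at 15.2-fold (10.6 to 22.3), with 0.610, 2.88, 2.01, 1.19 and 43.6 RPKM across stages 1 to 5 but 1.71 RPKM in the gametophyte. Neither passed 5.14 RPKM in any library but stage 5. Next were CL5920.Contig4 at 12.4-fold (9.75 to 15.9), Unigene23246 at 11.2-fold (10.3 to 12.2) and Unigene895 at 10.9-fold (5.73 to 23.5). Of these, Unigene23246 was the most abundant, with 18.1, 9.67, 8.60, 41.6 and 465 RPKM across stages 1 to 5 but 6.92 RPKM in the gametophyte. Unigene895 rested on 10 reads in stage 1 and 109 in stage 5.

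Some members lay near the edge of the set. As a description of counting precision on the selected ratios, the lower bound of the interval was at least 2 against every other library for 214 of the 300. Unigene561, just inside the margin, had 172 RPKM in stage 5 and 85.9 RPKM in stage 4. CL2204.Contig1 and Unigene21759, just outside it, had 116 RPKM in stage 5 against 58.3 RPKM in stage 2, and 72.8 RPKM in stage 5 against 36.4 RPKM in stage 2. At the last place, Unigene2462 had 31.5 RPKM in stage 5 and the first left out, Unigene20935, had 31.4 RPKM. The library scaling moved the margin too. With TMM scaling 240 of the 300 kept 2-fold over every other library, because stage 5 ratios dropped by 0.23 (log2) against stage 4 and by 0.39 against the gametophyte. By the rule as used, 410 unigenes stood out in stage 5, while the same margin picked 255, 118, 116 and 112 in stages 1 to 4 and 597 in the gametophyte. After TMM scaling the numbers were 310 for stage 5, with 218, 124, 110 and 142 in stages 1 to 4 and 793 in the gametophyte. The 9 left out for increasing at each stage were led by Unigene24847, whose stage 5 level of 293 RPKM would have placed it among the 300.

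Apart from dropping profiles that increase at every stage, the rule sets no order among the other 5 libraries, and there stage 1 came first most often. It held the second highest value in 142 of the 300 (47.3%), against 31.5% of the 3919 unigenes of similar stage 5 level and 25.9% of all 9601, in each case with stage 5 left aside. Stage 4 followed with 63 (21.0%, against 23.0% and 17.8%), then stage 2 with 49 (16.3%, against 19.6% and 18.9%), stage 3 with 34 (11.3%, against 17.3% and 20.9%) and the gametophyte with 12 (4%, against 8.62% and 16.5%). After TMM scaling stage 1 and stage 4 lay closer together, with 106 (35.3%) and 91 (30.3%) of the 300. This count was not made for the comparison sets, so the stage 1 excess over them is known for the deposited values only. All 9 unigenes left out for their steady increase had stage 4 highest among stages 1 to 4. Single libraries allow no test of these shares.

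**Figure D3:**
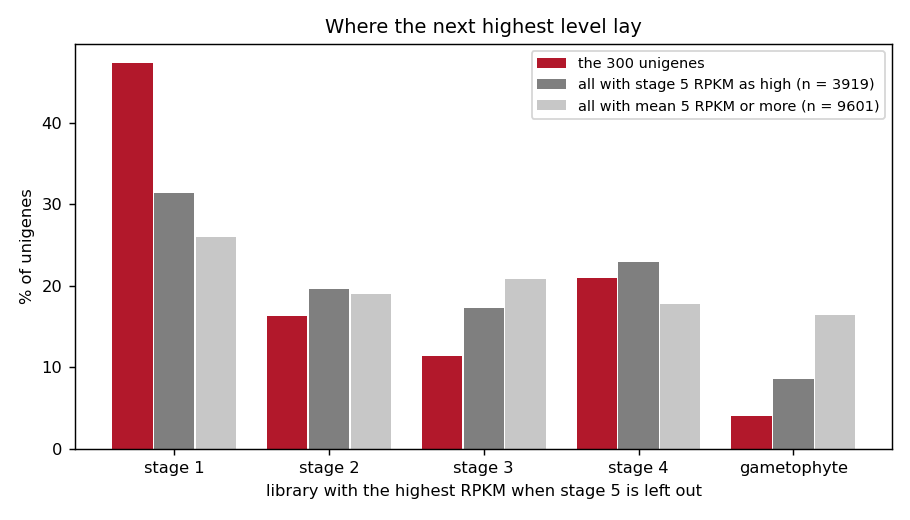
Share of unigenes (%) with their highest RPKM in each library when stage 5 is left aside, for the 300 unigenes (red), for the 3919 with a stage 5 RPKM as high as theirs (dark grey) and for the 9601 listed in all libraries with a mean of at least 5 RPKM (light grey). Stage 1 takes 47.3% of the 300, against 31.5% and 25.9%.

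The leading unigene of each class shows its form. Unigene22379 above led those with stage 1 second and CL5535.Contig3 those with stage 2 second. Unigene24679 led those with stage 3 second, with a nearly level 139, 170, 194, 168 and 475 RPKM across stages 1 to 5 but 101 RPKM in the gametophyte. Unigene20612 led the stage 4 class at 73.5, 55.5, 59.6, 113 and 471 RPKM across stages 1 to 5, with 48.9 RPKM in the gametophyte. The 12 with the gametophyte second were led by CL281.Contig3, at 85.0, 109, 53.8, 121 and 319 RPKM across stages 1 to 5, with 142 RPKM in the gametophyte. The median margin was 2.66 for the stage 1 class, 2.88 for stage 2, 2.39 for stage 3, 2.67 for stage 4 and 2.28 for the gametophyte class.

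Pairs of libraries other than stage 5 were then set side by side, with a ratio of at least 2 in RPKM as the measure and the 9601 unigenes as background. Within the small capsules, stage 1 was more often above than below the other 2 stages. Stage 3 was lower than stage 1 in 53 of the 300 (17.7%; background 9.47%) and higher in 9 (3%; background 11.0%). The median ratio of stage 3 to stage 1 was 0.81 in the set and 1.10 in the background. Stage 1 was thus favoured within the set and not among the 9601. Among the 3919 of similar stage 5 level, stage 3 was lower in 9.98% and higher in 4.41%, so stage 1 was favoured there too. After TMM scaling stage 3 was lower in 44 of the 300. Stage 2 was likewise lower than stage 1 in 62 (20.7%; background 20.8%) and higher in 26 (8.67%; background 20.8%). Among the 3919 the shares were 14.8% and 15.0%, so that the set's share lower was near that of the 9601 and above that of the 3919, and its share higher was below both. Against stage 2, stage 3 was lower in 37 (12.3%; background 14.9%) and higher in 17 (5.67%; background 16.9%). Both shares were near those of the 3919, at 11.4% lower and 6.66% higher.

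Stage 4, the middle-sized capsules, differed from the small stages in both directions. Stage 4 was higher than stage 3 in 52 of the 300 (17.3%; background 15.4%) and lower in 38 (12.7%; background 24.4%). Against stage 2 it was higher in 21 (7%; background 6.1%) and lower in 33 (11.0%; background 14.3%). Among the 3919 of similar stage 5 level, stage 4 was higher than stages 3 and 2 in 13.1% and 3.9% and lower in 12.5% and 7.6%. Against stage 1 it was higher in 29 (9.67%; background 19.0%) and lower in 63 (21.0%; background 24.9%), with 15.2% and 17.0% among the 3919. The shares higher than stages 2 and 3 were near those of the 9601 and above those of the 3919. The other 4 were below the 9601, and of these only the share higher than stage 1 was also below the 3919. The share lower than stage 3 was near that of the 3919. The median ratios of stage 4 to stages 1, 2 and 3 were 0.88, 1.03 and 1.05 in the set, against 0.93, 0.94 and 0.90 in the background. In 152 of the 300 (50.7%) all of stages 1 to 4 lay within 2-fold of each other, a share near the 52.0% of the 3919 of similar stage 5 level and above the 36.5% of all 9601.

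The gametophyte was low in most of the set. Among the 5 libraries other than stage 5 it was the lowest in 204 of the 300 (68.0%), against 61.2% of the 3919 and 46.6% of the 9601. With TMM scaling it was the lowest in 176 of the 300 (58.7%), a count not made for the comparison sets. Stage 1 was at least 2-fold higher than the gametophyte in 169 (56.3%; background 39.0%) and lower in 9 (3%; background 16.8%). Among the 3919 the share higher in stage 1 was 43.4%. The set thus lay above both for stage 1. Stage 2 was higher in 127 (42.3%; background 35.7%) and lower in 6 (2%; background 14.8%). Stage 3 was higher in 122 (40.7%; background 37.4%) and lower in 12 (4%; background 13.6%), and stage 4 was higher in 150 (50.0%; background 34.1%) and lower in 18 (6%; background 18.2%). Among the 3919, stage 2 was higher in 1567, stage 3 in 1526 (38.9%) and stage 4 in 41.1%. The set's share higher was thus near that of the 3919 for stages 2 and 3 and above it for stage 4. The shares lower among the 3919 were 7.99%, 4.62%, 6.89% and 6.23% for stages 1 to 4. The set lay below these for stages 1 to 3 and near for stage 4. The rule caps the gametophyte and stages 1 to 4 alike, while the background has no such cap. TMM scaling lowered the numbers at least 2-fold higher in stages 1 to 4 to 133, 101, 84 and 128 of the 300. It raised the numbers lower to 14, 9, 19 and 20. All 4 comparisons share 1 gametophyte library.

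**Figure D4:**
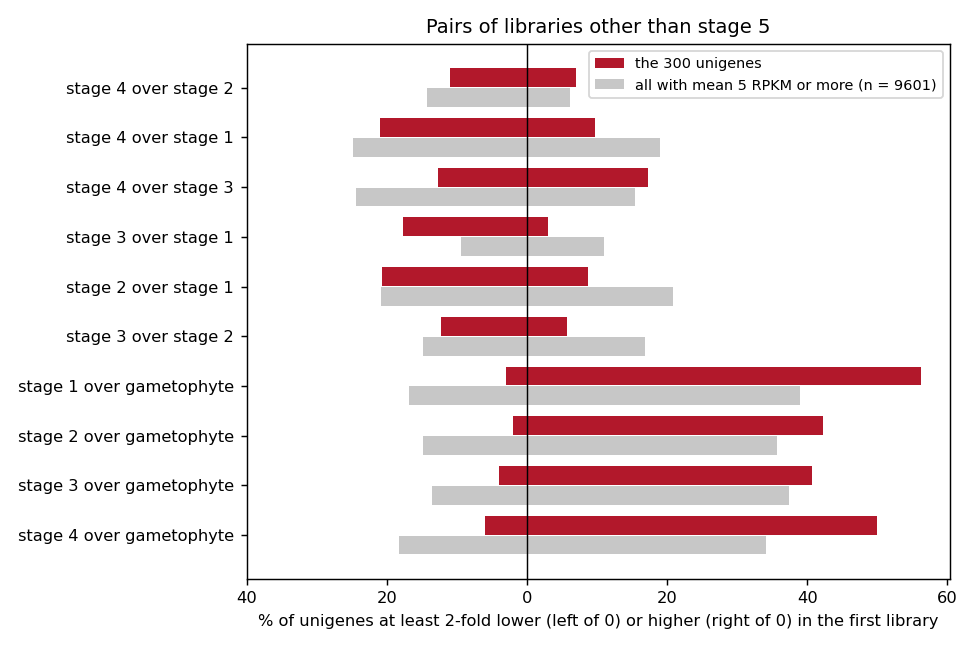
Share of unigenes (%) at least 2-fold lower (left of 0) or higher (right of 0) in the first named library of each pair, for the 300 unigenes (red) and the 9601 listed in all libraries with a mean of at least 5 RPKM (grey). Stage 3 over stage 1 leans to the left in the 300 (17.7% lower, 3% higher) and not in the 9601 (9.47% and 11.0%). The 3919 of similar stage 5 level, not drawn, lean to the left as well (9.98% and 4.41%).

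The test that the design allows without stage 5 set capsule stages 1 to 4 against the gametophyte, with the spread between the 4 stages and the lone gametophyte assumed to vary as they do. Of the 300, 56 were higher in stages 1 to 4 and 0 were lower (limma on log2(RPKM + 1), Benjamini-Hochberg adjusted p under 0.05), with 111 higher and 1 lower at an unadjusted p under 0.05 (5.63% and 29.8% of all tested). Over the 64174 unigenes tested, 2.42% were called higher and 28.2% lower, and over the 9601 the shares were 8.85% and 2.91%. The median log2 fold change of the 300 was 0.91, against 0.53 for the 9601 and 0.18 for all tested. TMM scaling lowered these medians to 0.66, 0.29 and 0.00, and 43 of the 300 were then higher (1.91% of all tested) and 1 lower. By limma-voom on the recovered reads 3 of the 300 were higher, a smaller share than the 3.35% of all tested. All tested include unigenes unlisted in the gametophyte, which the set cannot hold, and the limma-voom share called among the 9601 was not computed. The median log2 fold change by limma-voom was 0.70 for the 300, 0.28 for the 9601 and −0.31 for all tested. When the test was limited to unigenes listed in all libraries, 6 of the 300 were higher (0.636% of those tested). Without stage 3 the number was 34 (1.94% of all tested).

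Of the 3 with the lowest adjusted p, 2 had at most 3 reads in the gametophyte. Unigene20394, of 201 bases, had 9.51, 8.65, 10.4 and 9.11 RPKM in stages 1 to 4, against 1.30 RPKM in the gametophyte, which was 1 read. Its limma log2 fold change, 2.18, had a standard error of 0.13 (limma adjusted p of 0.000792), while the ratio of pooled reads was 7.24 with a counting interval from 1.23 to 292. The limma fit takes no account of this counting error. Unigene22962, of 821 bases, had 16.7, 21.8, 19.3 and 16.7 RPKM in stages 1 to 4 and 0.956 RPKM (3 reads) in the gametophyte, and a limma log2 fold change of 3.32 with standard error 0.20 (limma adjusted p of 0.000859). Unigene22466, of 2984 bases, rested on more reads, with 45.1, 47.0, 40.5 and 47.0 RPKM in stages 1 to 4 and 10 RPKM (114 reads) in the gametophyte. The limma log2 fold change here, 2.06, had a standard error of 0.13 (limma adjusted p of 0.000927), and the ratio of reads was 4.49 (3.72 to 5.46).

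The 3 that limma-voom also called were CL13315.Contig2, Unigene25901 and Unigene27788. CL13315.Contig2, the longest of the 300 at 6451 bases, had 38.2, 32.0, 27.4, 31.3 and 151 RPKM across stages 1 to 5, with 2.15 RPKM in the gametophyte, so that stages 1 to 4 together were 15.0-fold higher by reads (11.4 to 20.1). Unigene25901 had 166, 130, 143, 134 and 356 RPKM across stages 1 to 5, with 28.5 RPKM in the gametophyte, a ratio of 5.04 for stages 1 to 4 (4.46 to 5.71). Unigene27788 had 93.0, 77.4, 77.1, 34.0 and 363 RPKM across stages 1 to 5, with 0.331 RPKM in the gametophyte. Its gametophyte value was 2 reads, and the ratio for stages 1 to 4 was 214 with an interval from 59.2 to 1768. It was 1 of 14 members under 1 RPKM in the gametophyte, each of which had between 1 and 5 reads there. Of the 9601, 423 lay under 1 RPKM there, a share near that of the 300.

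Stage 4 was tested in the same way against the 3 small stages. None of the 300 passed (0 higher and 0 lower, limma adjusted p under 0.05), with 4 higher and 15 lower at an unadjusted p under 0.05 (7.01% and 2.55% of all tested). Of the 45942 unigenes tested, 4.14% were called higher and 0.0% lower. Among the 9596 of the 9601 that entered the fit, the shares were 0.0313% and 0.0%. The median log2 difference was 0.02 in the set, −0.11 in the 9601 and −0.26 over all tested. Unigene29986 had the lowest adjusted p of the 300, 0.0894 by limma, and was the 1 member that limma-voom called higher (2.55% of all tested), with 10 higher and 10 lower there at an unadjusted p under 0.05. It measured 0.167, 2, 0.334, 116 and 272 RPKM across stages 1 to 5, with 0.502 RPKM in the gametophyte. Without stage 2 there were 4 higher and 2 lower calls, Unigene29986 among them, against 12.2% higher and 2.56% lower over all tested. The members' shares lay below those over all tested in both of these fits, but all tested include unigenes unlisted in some libraries. The set cannot hold such unigenes, and no share called among the 9601 was computed for either fit, so this is no like comparison.

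Unigene29986 belonged to 23 of the 300 (7.67%) in which stages 1 to 4 differed by 10-fold or more, against 5.89% of the 3919 and 12.4% of the 9601. Their lowest stage was stage 4 in 11, stage 1 in 8, stage 3 in 4 and stage 2 in 0. Named here after their values were seen, CL13561.Contig1 and Unigene29539 show both forms. CL13561.Contig1 had 0.354, 76.0, 0.531, 73.8 and 166 RPKM across stages 1 to 5, with 0.532 RPKM in the gametophyte, so that stages 1 and 3, with 2 and 3 reads, lay as low as the gametophyte. Unigene29539 had 84.3, 16.0, 41.1, 2.82 and 189 RPKM across stages 1 to 5, with 12.5 RPKM in the gametophyte, and there stage 4 was the lowest of all. In 7 of the 23, stages 1 and 3 were each at most 0.1 times the higher of stages 2 and 4. Neither this count nor that of the lowest stages was made for the 3919 or the 9601. Both therefore describe the 23 only and show no trait particular to the set.

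Of the 300, 110 (36.7%) were contigs that carry a cluster number and 190 were single unigenes, close to the 36.9% contigs among all 9601. The median recovered length was 1788 bases, against 1627 in the 3919 of similar stage 5 level and 1410 in the 9601. The stage 5 reads behind a member ran from 41 upward with a median of 942. In 52 of the 300 at least 1 other library had fewer than 10 reads. The same held for 209 of the 3919 and 2080 of the 9601.

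The 110 contigs lay in 109 clusters, and CL5920 was the only cluster with 2 of them. CL5920.Contig4 had 1.37, 3, 0.687, 4.87 and 60.2 RPKM across stages 1 to 5, with 0.282 RPKM in the gametophyte, while CL5920.Contig1 had 14.6, 11.5, 7.77, 8.75 and 37.0 RPKM across stages 1 to 5, with 6.70 RPKM in the gametophyte. The other 2 contigs of the cluster, not members, were also highest in stage 5, at 16.1 RPKM for CL5920.Contig2 and 5.07 RPKM for CL5920.Contig3. In stages 1 to 4 and the gametophyte CL5920.Contig1 was thus the most abundant of the 4, and in stage 5 CL5920.Contig4 was.

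The other contigs of the members' clusters were not chosen by the rule, although those among the 9601 had been screened by it. There were 90 of them, in 61 clusters, and 41 were listed in the gametophyte only, among them CL5535.Contig1 at 90.9 RPKM and CL5535.Contig2 at 118 RPKM. Of all 90, 27 were highest in stage 5, against 1166 of 6250 comparison contigs (18.7%), and 43 (47.8%) were highest in the gametophyte. The contrast was wider once contigs listed in the gametophyte only were set aside. Of the 49 listed in at least 1 capsule library, 27 (55.1%) were highest in stage 5, against 21.5% of 1896 contigs in clusters without a member, where of each cluster the contig of the 9601 with the highest stage 5 RPKM was left out. For those listed in all libraries the number was 15 of 28 (53.6%), against 20.6% of 680. Outside the 9601, 19 of 33 contigs listed in a capsule library (57.6%) were highest in stage 5, against 23.1% of 1583 in clusters without a member. How the authors counted reads matching several contigs is not given in the sources used here. Where contigs are alike, their separate values are uncertain, and those of members and other contigs may be tied together.

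The reads were also summed over all contigs of a cluster. Since the sums hold the chosen contig, they show only how much the other contigs alter its profile. Of the 61 clusters with more than 1 contig, 52 were at least 2-fold higher in stage 5 than in any other library, 8 were highest there by less, and 1 was not highest there. The median ratio was 2.41 for the sums and 2.44 for the chosen contigs, which themselves held a median of 99.8% of their cluster's stage 5 reads. In the exception, CL6154, the chosen CL6154.Contig1 (288 bases) had 38.6, 3.62, 1.21, 9.54 and 90.9 RPKM across stages 1 to 5, with 1.82 RPKM in the gametophyte. CL6154.Contig2 (2630 bases) had 784, 783, 395, 380 and 518 RPKM across stages 1 to 5, with 166 RPKM in the gametophyte, and the member carried 1.89% of the cluster's stage 5 reads. In CL6926 the 2 contigs listed in all libraries differed, with CL6926.Contig2 at 114 RPKM in stage 5 and 37.6 to 51.9 RPKM in stages 1 to 4, and CL6926.Contig3 at 39.0 RPKM in stage 5 and 39.8 to 65.0 RPKM in stages 1 to 4. The sum of that cluster was 1.04-fold higher in stage 5 than in stage 4.

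**Figure D5:**
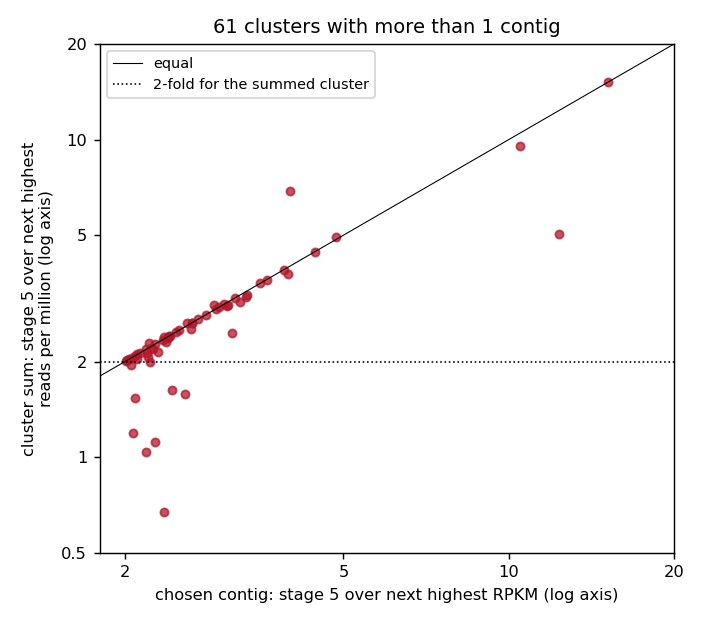
Ratio of stage 5 to the next highest library for the chosen contig (horizontal, RPKM, log axis) and for the summed reads of its cluster (vertical, reads scaled to the library total, log axis), 1 point for each of the 61 clusters with more than 1 contig. The ratio of the sum is within 5% of that of the contig in 46 clusters, 9 lie under the dotted line at 2-fold, and CL6154 lies lowest.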

How the data were processed

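Per the file headers, the authors deposited RPKM values, 1 table per library. Unlisted values, written as a dash, entered the tests as 0. The series text names the Illumina HiSeq platform and the labels TRIzol extraction. How reads were assembled, aligned and counted is not given in the sources used here. Library totals were worked back from the steps between low RPKM values. Each unigene's length was taken as the smallest whole number from 200 to 15000 bases at which every value comes to a whole read number (tolerance 0.9 units of the last printed digit). Lengths were found for 100.0% of unigenes, and reads summed to 96.1% (gametophyte) to 99.7% of the totals; lengths and reads are underestimates where all reads share a factor with the length. No 2 libraries held identical values.

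Tests were run on log2(RPKM + 1) with limma 3.58.1 in R 4.3.3, using its trend option, over all unigenes with at least 1 RPKM in a library of the fit, which understates changes of low unigenes. Stage 5 stayed out of both fits. The small stages are not labelled as replicates, so p-values measure only the spread between single libraries. Read ratios have 95% exact conditional-binomial intervals. TMM and median-ratio factors were computed from the recovered reads. Scripts were tested on simulated data.

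The members, lists and tests were chosen with earlier results of these data known. Unigenes were named by rule: the 10 highest in stage 5, the 5 widest margins, the 3 highest in the gametophyte, the leader for each second highest library, those at each edge, the contigs of 3 clusters with most members (ties by summed stage 5 RPKM), and the 3 lowest adjusted p among the calls; others were named after their values were seen.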

Additional observations from a re-analysis of the deposited data

How the results depend on the processing

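The size of the set depended most on the margin and on counting error. Instead of 410 unigenes before the 300 were taken, a margin of 3 left 139 and a counting bound of at least 2 left 250, and 107 of the 300 kept the margin of 3. TMM scaling, median-ratio scaling and a mean of at least 10 RPKM left 310, 309 and 303. For stages 1 to 4 against the gametophyte, 56 higher calls stood against 3 with limma-voom, 6 with unigenes listed in all libraries only and 34 to 45 when 1 stage was left out, and 1 lower call appeared with a pseudocount of 0.1 and with TMM scaling. For stage 4 against stages 1 to 3, limma-voom gave 1 higher call, and leaving out 1 stage gave 0 to 4 higher and 0 to 2 lower calls. The cause was not tested. The share with the gametophyte second was 4% as deposited and 7.33% after TMM scaling. No paired analysis was possible because each stage had 1 library. The gametophyte, the shallowest library, limits the ratios of the 14 members under 1 RPKM there. The alternatives on stage pairs, on summed clusters, on contigs of clusters without a member and on unigenes of similar stage 5 level were chosen after seeing the data.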

Other observations

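The set held some single unigenes with consecutive numbers. Of its 190 single unigenes, 126 had a neighbouring number among the 6062 single unigenes of the background, and 20 of these, in 10 pairs, had a neighbour within the set. How often such pairs fall together in other sets was not counted, so these numbers are a description only. The 2 most abundant members, Unigene22378 and Unigene22379, are such a pair, and so are Unigene20785 and Unigene20786. What a neighbouring number means in this assembly is not given in the sources used here.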
